A study of Camellia sinensis with 6 samples.

Results

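The WRKY family of the tea plant Camellia sinensis was followed in young shoots of the cultivar 'Zhonghuang 2'. A gene model was taken as a member when its deposited description names the WRKY DNA-binding domain (Pfam entry PF03106), and 85 of 40118 gene models met that rule, which uses no expression value. The deposited transcription factor family column lists the same 85 models under WRKY. Shoots came from plants kept in 2 climate chambers, all of one cultivar. The low-temperature group had 18 °C days and 14 °C nights, and was sampled when its leaves had turned yellow. The high-temperature group, which the submitters call the control, had 26 °C days and 22 °C nights. Both groups had 12 h of light and 12 h of dark, spent 1 month at 22 °C beforehand and were sampled after about 1 month of treatment, with 3 RNA-seq libraries each. Since 1 chamber served each temperature, an effect of the chamber itself cannot be told apart from that of temperature.

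WRKY proteins are plant transcription factors with a zinc-finger domain that binds the W-box, a short motif in the promoters of many defence and senescence genes. They fall into groups I, II (split into IIa to IIe) and III by the number of domains and the kind of zinc finger. In Arabidopsis, members act downstream of pattern receptors, MAP kinases and salicylic acid. Others steer leaf senescence, phosphate supply, seed coat and trichome development, and many bind W-boxes in the promoters of WRKY genes themselves.

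The 6 libraries held 15202546 to 15642015 counts. Differences below are on raw counts, tested with edgeR's quasi-likelihood test and adjusted by Benjamini-Hochberg over all gene models tested. A model was called at an adjusted p under 0.05. Levels of single models across libraries, and their sums, are TMM-scaled CPM. These are counts relative to the library's total after that total is multiplied by a TMM factor. The factor was 1.098 in high-temperature replicate 2 and 0.966 to 1.002 in the other libraries. Log2 changes are low minus high temperature, with their standard errors. Nothing in the labels says whether replicate libraries stem from different plants, and the p-values then measure only how these libraries vary, possibly for technical reasons. High-temperature replicate 2 stood apart from the other controls, with a chi-square per gene of 26.5 and 22.95 against replicates 1 and 3, while those 2 differed by 5.32. The low-temperature replicates differed from each other by 5.66 to 11.5.

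Summed over the family, WRKY transcripts did not differ between the chambers by more than the spread of the libraries, while 3 members rose and 7 fell. The 85 members made up 967, 901 and 928 CPM in the low-temperature libraries (932 ± 33.1, SD, n = 3), against 933, 925 and 916 CPM in the high-temperature libraries (925 ± 8.49, SD, n = 3). The low-temperature range encloses the high-temperature one. Of the 85 members, 58 had enough counts to be tested, 22 had counts but too few, and 5 had no count in any library. Among the 58, 48 did not pass the test, and the 10 that did are 17.2% of the tested members, where 18.9% of the 26767 tested gene models were called, 9.27% higher and 9.65% lower. The share of WRKY members called was thus near that of all genes. The same holds for 2-fold changes, with 3 called members past 2-fold and 4.79% of all tested models. Leaving out 1 library moved the counts: 1 rose without low-temperature replicate 1 or 2 and 5 without replicate 3, and 4 fell without low-temperature replicate 2 or high-temperature replicate 1 and 3 without low-temperature replicate 3. Over all tested models 2606 were called without low-temperature replicate 2 and 2681 without replicate 3, against 5062 with every library. The fitted change was positive for 29 members and negative for 29, with a median of -0.01 in log2, the same as over all tested models, and a range of -1.71 to 1.53. In 19 of 58 members (32.8%) the 3 libraries of one temperature lay wholly above or below those of the other, against 36.5% of all tested models. Bulk shoots were sequenced, so fewer cells of a type and less RNA per cell cannot be told apart in any of these values.

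Levels between genes were compared with the deposited FPKM, which are per length. Expression of the family was concentrated in few members: the 5 highest held 36.7% of the summed FPKM of the family and the 10 highest held 56.6%. Averaged over the 6 libraries, 10 members reached 20 FPKM or more, 20 lay between 5 and 20, 29 between 1 and 5, 21 were below 1 but above 0, and 5 were at 0. None of the 5 highest members passed the test.

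**Figure D1:**
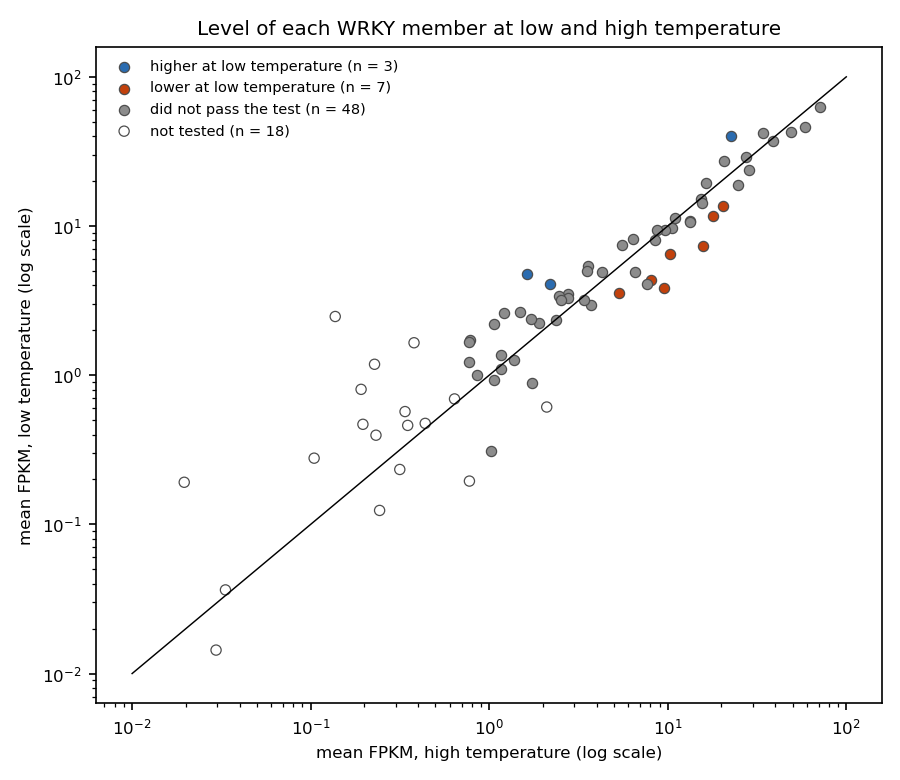
Mean FPKM in the low-temperature libraries (vertical axis) against mean FPKM in the high-temperature libraries (horizontal axis) for the WRKY members above 0 in both groups, both on a log scale, with called members filled in colour and untested ones open. Most points lie near the line of equal level, and the called members sit at middle levels apart from a SUSIBA2-type model at 39.9 FPKM in the low-temperature libraries and 22.5 FPKM in the high-temperature libraries.

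The highest member was Cha04g019720, named WRKY44. Arabidopsis WRKY44 is TTG2, which acts in trichomes and in the tannins and mucilage of the seed coat. It averaged 62.5 ± 5.46 FPKM at low temperature and 70.9 ± 12.4 FPKM at high temperature (SD, n = 3 each). In CPM it read 99.1, 83.8 and 87.8 in the low-temperature libraries and 89.2, 125 and 95.6 in the high-temperature libraries. The groups overlap, and the log2 change of -0.19 ± 0.14 had an adjusted p of 0.383 in edgeR's quasi-likelihood test. Next came Cha10g003220, a WRKY70 model, at 46.3 ± 4.75 FPKM in low-temperature and 58.8 ± 9.3 FPKM in high-temperature libraries. Its CPM were 48.5, 41.3 and 50.2 at low temperature, against 67.97, 50.1 and 60.7 at high temperature, a log2 change of -0.35 ± 0.14 (adjusted p = 0.0948). High-temperature replicate 2 was its lowest control value, and without that library the log2 change was -0.46 with an adjusted p of 0.00929.

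The other members of the top 5 were Cha03g016910 (WRKY15), Cha01g019310 (WRKY7) and Cha03g019520 (WRKY4). WRKY7 and WRKY15 belong to group IId, whose Arabidopsis proteins bind calmodulin, and Arabidopsis WRKY4 acts in the response to necrotrophic fungi. Cha03g016910 averaged 42.8 FPKM at low and 48.8 FPKM at high temperature (log2 change -0.20, adjusted p = 0.36). Cha03g019520 stayed close in both groups, with 37.3 ± 0.785 FPKM at low and 38.7 ± 2.3 FPKM at high temperature (log2 change -0.06, adjusted p = 0.772). Cha01g019310 read 43.6, 40.5 and 48.8 CPM at low temperature, against 31.7, 39.7 and 36.6 CPM at high temperature. Its groups do not overlap, but the log2 change of 0.30 ± 0.14 had an adjusted p of 0.153.

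Calls were also counted by level. Of the 30 tested members that averaged 5 FPKM or more, 1 rose and 6 fell, and 9 had a positive and 21 a negative change (median log2 change -0.16). That is 23.3% called, against 24.5% of all tested gene models at that level, of which 12.7% rose and 11.8% fell, with 51.7% of changes positive. Of the 28 below 5 FPKM, 2 rose and 1 fell, and 20 had a positive and 8 a negative change (median 0.28). Here 10.7% were called, against 8.55% of all tested models below 5 FPKM, where 44.6% of changes were positive. The share called was thus near that of all genes at either level. The boundary of 5 FPKM was set for description only, and whether more and less abundant members differ was not tested.

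The most abundant member that changed was Cha01g001420, one of 3 models named after SUSIBA2, a barley WRKY factor of sugar signalling that activates starch synthesis genes in the endosperm. It lies on sequence 1 of the assembly, at 8975850 to 8983556 on the minus strand. It read 136, 111 and 125 CPM in the low-temperature libraries, against 79.1, 53.96 and 78.4 CPM in the high-temperature libraries. Every low-temperature library exceeded every control, and the means were 124 ± 12.7 CPM at low and 70.5 ± 14.3 CPM at high temperature (SD, n = 3 each). The log2 change was 0.82 ± 0.15, a 1.76-fold rise (adjusted p = 0.00139). It was the sixth most abundant member by FPKM and was called in 16 of 17 alternative analyses, losing the call in a test against a 1.5-fold change (adjusted p = 0.34).

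The other SUSIBA2 models fell. Cha05g010520 (sequence 5, 117558619 to 117562606, plus strand) read 16.2, 12.98 and 17.2 CPM at low temperature, against 24.1, 25.1 and 21.8 CPM at high temperature. The groups do not overlap (log2 change -0.61 ± 0.16, adjusted p = 0.0139), but without low-temperature replicate 2 the adjusted p was 0.101. Cha08g012730 (sequence 8, 120084471 to 120087989, plus strand) read 23.2, 18.3 and 16.8 CPM at low temperature, against 30.6, 34.3 and 22.7 CPM at high temperature. Here the highest low-temperature library exceeded the lowest control (log2 change -0.59 ± 0.18, adjusted p = 0.0268). The call was lost without low-temperature replicate 2 or 3 or high-temperature replicate 1 or 2, with adjusted p of 0.122, 0.148, 0.071 and 0.0599.

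Models of WRKY53, an Arabidopsis group III factor that promotes leaf senescence, moved in opposite directions. Cha06g008830 (sequence 6, 96366655 to 96370620, minus strand) had the smallest p of the family. It read 8.27, 8.95 and 6.48 CPM at low temperature, against 17.6, 18.3 and 15.8 CPM at high temperature. All 3 low-temperature values lay well under the controls, with means of 7.90 ± 1.27 CPM at low and 17.2 ± 1.3 CPM at high temperature (SD, n = 3 each), a log2 change of -1.12 ± 0.19 (2.18-fold lower, adjusted p = 0.000574). Leaving out any single library kept this call.

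Cha02g000930 (sequence 2, 7488118 to 7490441, plus strand), also named WRKY53, had the most positive change among the tested members. It read 7.34, 4.86 and 2.40 CPM at low temperature, against 1.09, 2.16 and 1.78 CPM at high temperature. The low-temperature libraries spread widely, but all lay above the controls, with a log2 change of 1.53 ± 0.41 (2.88-fold higher, adjusted p = 0.0136). The call rested on both of the higher libraries: the adjusted p was 0.115 without low-temperature replicate 1 and 0.0527 without replicate 2. A further WRKY53 model, Cha12g001020, read 4.14, 2.05 and 2.53 CPM at low temperature, against 1.09, 0.72 and 2.24 CPM at high temperature (log2 change 1.11 ± 0.46, adjusted p = 0.102), and was looked at because of its value. The fourth, Cha14g008930, had a log2 change of 0.18 (adjusted p = 0.751).

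All 4 models of WRKY70 had a negative change, and 2 of them fell. Arabidopsis WRKY70 is a group III factor that favours salicylic acid responses over those to jasmonate and delays senescence. Cha08g003880 (sequence 8, 28168048 to 28170532, plus strand) read 3.47, 3.84 and 3.11 CPM at low temperature, against 8.97, 10.02 and 7.03 CPM at high temperature. The lowest control was above every low-temperature library, and the log2 change was -1.32 ± 0.25 (adjusted p = 0.00122). It was the member that passed in all 17 alternative analyses, at adjusted p of up to 0.0408.

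Cha04g022660 (sequence 4, 184954971 to 184957178, minus strand) read 4.67, 8.05 and 6.42 CPM at low temperature, against 8.84, 12.4 and 9.53 CPM at high temperature. The groups do not overlap but nearly touch, and the log2 change of -0.69 ± 0.24 passed narrowly (adjusted p = 0.0499). The call was lost in 4 of the 6 analyses that leave out 1 library, with adjusted p of 0.184 and 0.138 without low-temperature replicates 1 and 3, and 0.141 and 0.0786 without high-temperature replicates 2 and 3. The other WRKY70 models were Cha10g003220, described above, and Cha01g006280 (log2 change -0.35, adjusted p = 0.26). Summed, the 4 models read 65.97 ± 4.41 CPM at low and 90.6 ± 6.34 CPM at high temperature (SD, n = 3 each).

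Cha07g014430 (sequence 7, 160870499 to 160874944, minus strand) was the remaining member that rose. It is named WRKY6, after an Arabidopsis group IIb factor of senescence and phosphate transport. It read 8.81, 7.54 and 5.64 CPM at low temperature, against 3.13, 2.88 and 5.79 CPM at high temperature, so that the lowest low-temperature library fell just under the highest control. The log2 change was 0.90 ± 0.29 (adjusted p = 0.0392). Without low-temperature replicate 1 or 2 the adjusted p was 0.161 or 0.125, and without high-temperature replicate 1 or 2 it was 0.117 or 0.0866.

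The last pair of fallen members were a WRKY24 and a WRKY49 model. Rice WRKY24 represses gibberellin and abscisic acid signalling in aleurone cells. Cha10g003590, which carries that name (sequence 10, 22224604 to 22279505, plus strand), read 11.4, 14.2 and 11.4 CPM at low temperature, against 20.3, 17.6 and 17.9 CPM at high temperature. The groups are apart (log2 change -0.59 ± 0.17, adjusted p = 0.0208), and the call was lost without low-temperature replicate 1 or 3 or high-temperature replicate 1, with adjusted p of 0.0704, 0.106 and 0.0722. Cha10g005460, the WRKY49 model and the called member of group IIc (sequence 10, 40831322 to 40834597, plus strand), read 4.27, 2.81 and 2.40 CPM at low temperature, against 5.98, 6.78 and 4.80 CPM at high temperature. No low-temperature library reached the controls (log2 change -0.89 ± 0.29, adjusted p = 0.0408), but the adjusted p ranged from 0.0824 to 0.175 when low-temperature replicate 2 or 3 or high-temperature replicate 1 or 2 was left out.

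**Figure D2:**
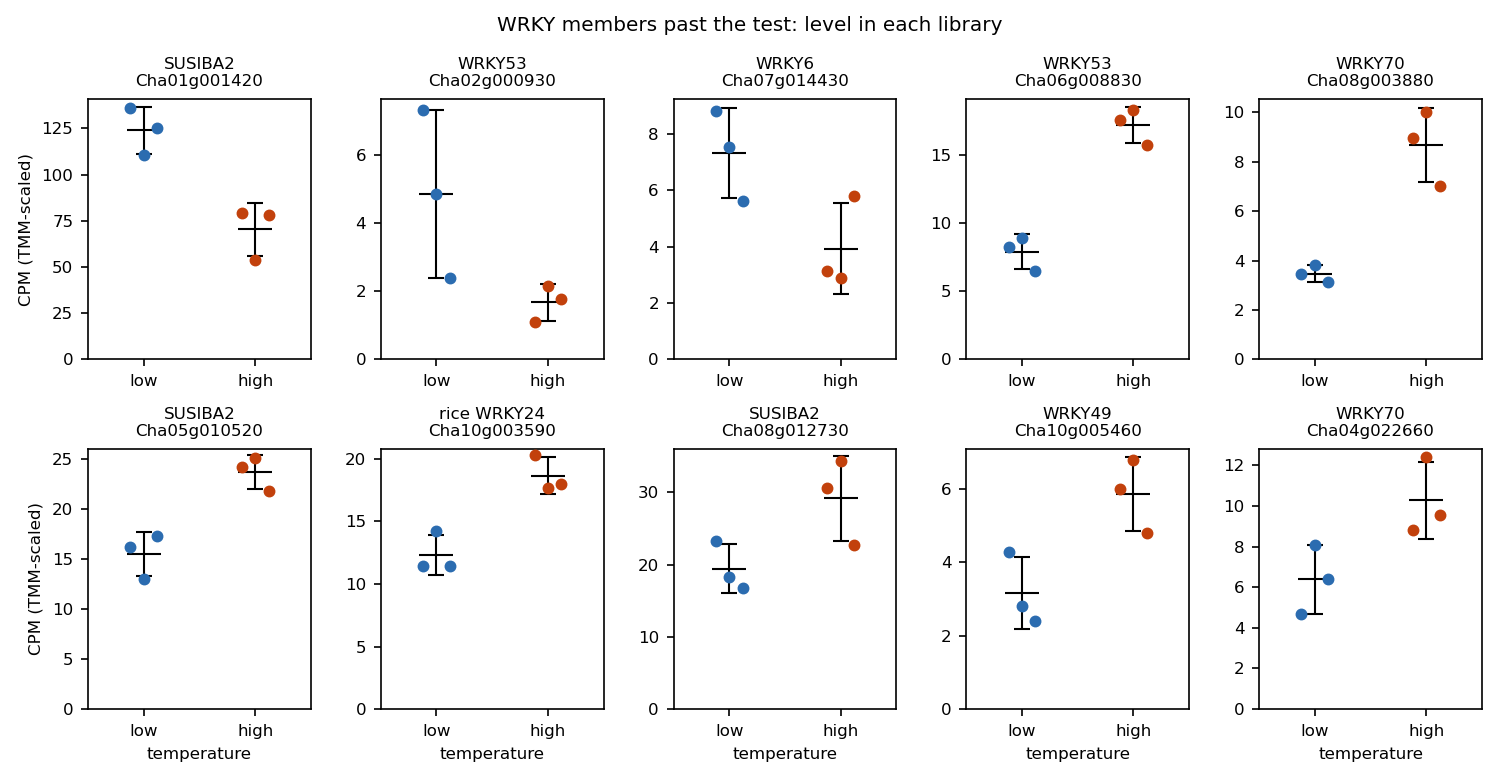
CPM of the 10 called WRKY members in each of the 3 low-temperature (left) and 3 high-temperature libraries (right), 1 panel a member with its own axis; points are libraries, the long line is the mean and the whiskers span 1 SD to each side. The groups are apart in 8 panels and overlap in those of Cha08g012730 and Cha07g014430.

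The libraries behind these calls were not of equal weight. With high-temperature replicate 2 left out, 8 members were called, 6 of them among the 10. Among the lost calls were Cha04g022660 and Cha10g005460, and among the gained ones Cha10g003220. With low-temperature replicate 2 left out, 5 of the 10 were called and no other member.

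Several product names were carried by more than 1 member: the members bear 45 distinct WRKY names, and 23 of these are shared by 59 members. The submitters' counting may split reads among near-identical copies, so the split between models of 1 name is less certain than their sum. There were 5 names with at least 3 tested models and a called one, and in 4 of these some models had a positive and others a negative change. Among these 5 names the largest sum was that of the SUSIBA2 models, at 159 ± 16.7 CPM in low-temperature and 123 ± 10.3 CPM in high-temperature libraries (SD, n = 3 each). Cha01g001420 supplied 77.5%, 77.96% and 78.7% of it at low temperature, against 59.1%, 47.6% and 63.8% at high temperature.

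Within WRKY53, Cha06g008830 held 36.6%, 46.1% and 45.05% of the summed CPM at low temperature, against 79.2%, 75.3% and 69.97% at high temperature. Over the same models Cha02g000930 held 24.7% ± 7.89 at low and 7.22% ± 2.08 at high temperature (SD, n = 3 each), and the sum was 18.8 ± 4.15 CPM at low and 23.03 ± 1.12 CPM at high temperature. Cha06g008830 was thus the leading WRKY53 model in every library, by a wider margin in the controls. For WRKY24 the sum hardly differed, with 34.7 ± 2.28 CPM at low and 33.7 ± 1.76 CPM at high temperature, while the share of Cha10g003590 was 35.5% ± 2.27 at low and 55.4% ± 5.28 at high temperature. ChaUn10993.2 held 53.5% ± 6.5 at low and 39.2% ± 5.23 at high temperature, and its own log2 change of 0.48 ± 0.18 had an adjusted p of 0.0647.

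Among 5 WRKY6 models, Cha07g014430 held 52.8% ± 6.33 of their summed CPM at low and 36.5% ± 6.57 at high temperature, whereas Cha08g016990 held 8.96% ± 0.743 at low and 24.5% ± 8.59 at high temperature (SD, n = 3 each). In WRKY70 the leading model Cha10g003220 held 70.7% ± 5.23 at low and 65.5% ± 5.5 at high temperature, with overlapping groups. Over the 19 shares of these 5 names, the exact two-sided permutation p was 0.1 wherever the groups were apart, which is the smallest that 3 against 3 libraries allow (0.173 after Benjamini-Hochberg adjustment over the 19). No share can therefore pass a threshold of 0.05 in this design. The 5 names were also picked for a called model in these same libraries, so shares that lie apart are no separate support for those calls. Shares within a name depend on each other, so the 19 are not independent.

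**Figure D3:**
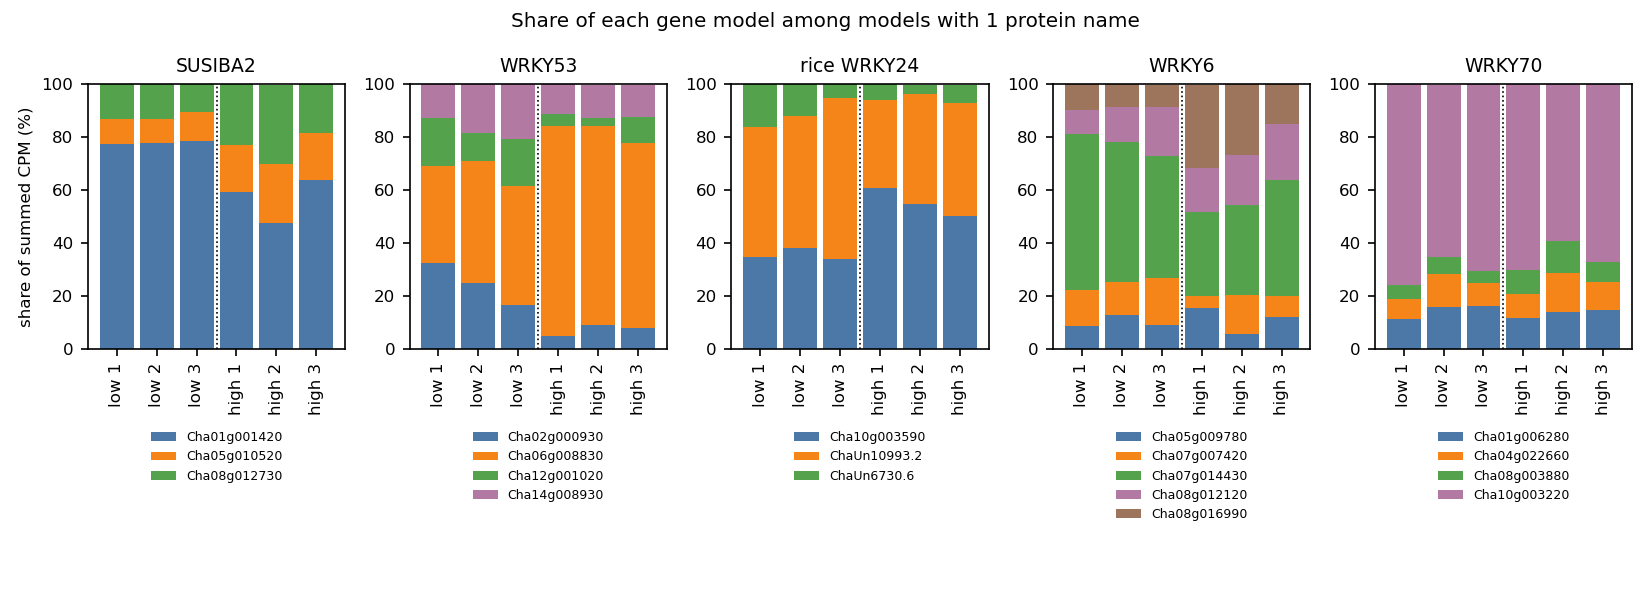
Share of the summed CPM of all models with 1 product name held by each of them, per library, low-temperature libraries left and high-temperature libraries right, for the 5 names with 3 or more tested models and at least 1 called. The SUSIBA2 share of Cha01g001420 lies between 77.5% and 78.7% in the low-temperature libraries and between 47.6% and 63.8% in the high-temperature libraries.

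By the Arabidopsis number in the product name, members were sorted into the WRKY groups. Group I, whose proteins usually carry a pair of WRKY domains, was the most abundant, with 30.7% of the family's FPKM, followed by IId with 24.8% and III with 15.4%. Barley SUSIBA2 and rice WRKY24 also carry a pair of domains and belong to group I, but their names hold no Arabidopsis number, so the 6 models named after them were not sorted into it. With them group I had 17 tested members, of which 1 rose and 3 fell (23.5%, against 18.9% of all tested models). Under Arabidopsis numbers alone, neither group I nor IId had a called member in edgeR's quasi-likelihood test or in DESeq2, and at an unadjusted p under 0.05 they had 1 member each. By those numbers group I read 376 ± 10.2 CPM at low and 384 ± 31.4 CPM at high temperature, summed over 11 members (SD, n = 3 each), with a median log2 change of -0.06. Its member with the smallest p was Cha08g018250, a WRKY2 model, at 18.3 ± 2.19 CPM at low and 14.4 ± 0.976 CPM at high temperature (log2 change 0.35 ± 0.17, adjusted p = 0.155). Group IId read 173 ± 4.51 CPM at low and 172 ± 3.81 CPM at high temperature. The plant zinc cluster domain, which accompanies the WRKY domain in this group, was annotated in 9 members, of which 8 were tested and 0 called. At an unadjusted p under 0.05 the whole family had 21 of 58 tested members and those with the zinc cluster 1 of 8. Over all tested models it was 8528 of 26767.

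The 11 members of group III summed to between 83.2 and 86.8 CPM in the low-temperature libraries and between 109 and 119 CPM in the high-temperature libraries, with means of 85.4 ± 1.93 CPM at low and 114 ± 5.34 CPM at high temperature (SD, n = 3 each). Of 8 tested members 1 rose and 3 fell, all of them WRKY53 or WRKY70 models, and the median log2 change was -0.35. Over all tested models 9.27% rose and 9.65% fell, and 8 members are too few to read a share from. The most abundant of them, Cha10g003220, averaged 46.7 CPM at low and 59.6 CPM at high temperature and did not pass the test (adjusted p = 0.0948). The 13 members with a name outside the Arabidopsis numbers, SUSIBA2 and WRKY24 among them, summed to 201 ± 16.1 CPM at low and 163 ± 11.5 CPM at high temperature (SD, n = 3 each), and of 9 tested 1 rose and 3 fell, the SUSIBA2 and WRKY24 models already named. Whether a group differs from the rest of the family was not tested.

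The remaining groups were small. Group IIb had 5 tested members, with Cha07g014430 as its called one, and IIc had 10, with Cha10g005460. Group IIa, which in Arabidopsis holds WRKY18, WRKY40 and WRKY60 as repressors in defence and abscisic acid responses, had 4 members, 2 of them tested, and held 0.697% of the family's FPKM. Its lead was Cha03g007750, a WRKY40 model, at 6.004, 2.05 and 1.75 CPM at low temperature, against 2.72, 1.98 and 2.498 CPM at high temperature. Only low-temperature replicate 1 lay apart from the other libraries (log2 change 0.44 ± 0.43, adjusted p = 0.519). In group IIe a locus outside the annotated gene models, named WRKY14, had 7, 5 and 1 counts at low temperature, against 11, 16 and 17 counts at high temperature. Its log2 change of -1.71 ± 0.71 was the most negative among the 58 tested members and missed the threshold (adjusted p = 0.105).

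**Figure D4:**
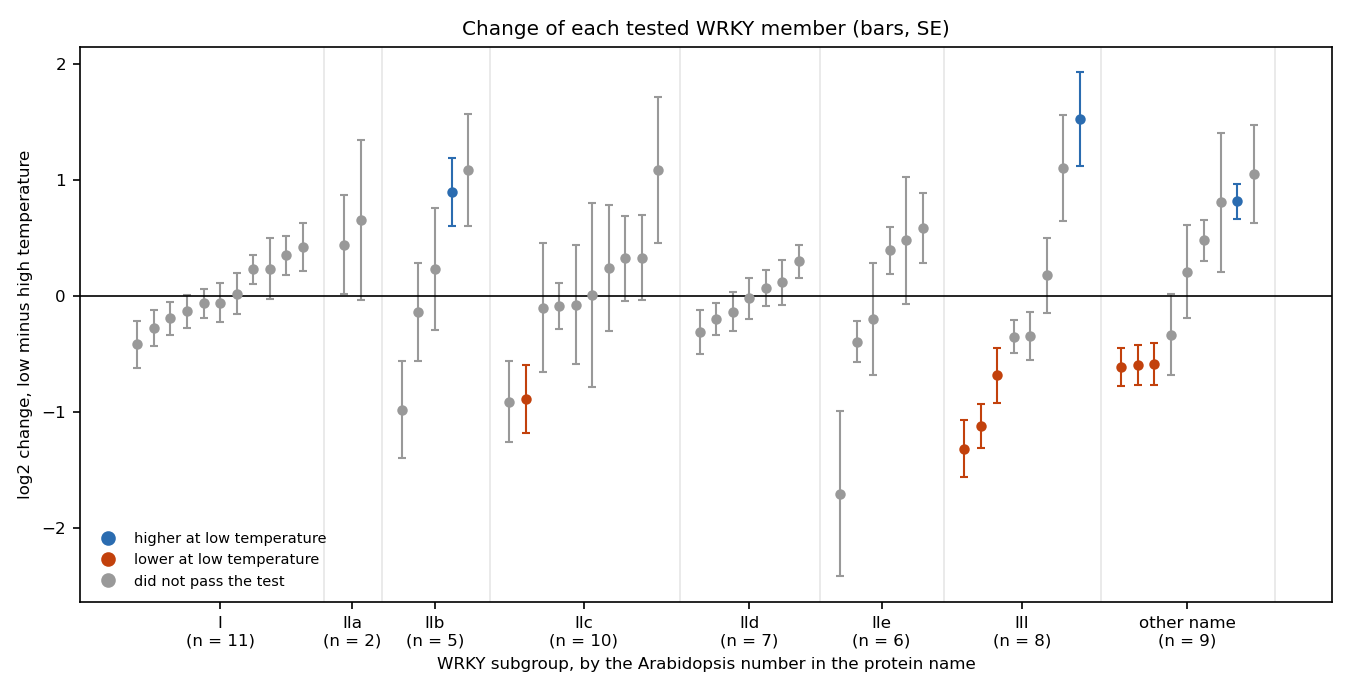
Log2 change, low minus high temperature, of the 58 tested WRKY members by group (horizontal axis), with called members coloured and bars of 1 SE to each side. The called members of group III lie at -1.32, -1.12, -0.69 and 1.53. The 4 called members under other names are SUSIBA2 and WRKY24 models, which are of group I type, and groups I and IId, sorted by Arabidopsis number, hold no called member.

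The 27 members that were not tested had few reads. The highest total of any of them was 112 counts over the 6 libraries, in Cha13g009480, a WRKY71 model, which had 62, 44 and 0 counts in the low-temperature libraries, against 2, 2 and 2 counts in the high-temperature libraries. Arabidopsis WRKY71 promotes branching and flowering. Low-temperature replicates 1 and 2 carried nearly all of its reads, and replicate 3 had none; a count of 0 allows up to 3 counts, which is at most 0.204 CPM in these libraries. It was called in the analysis without replicate 3. The 5 members at 0 in every library were named WRKY75, WRKY61, WRKY45, WRKY72 and WRKY1. Members lie on 15 numbered sequences, with at most 9 on a sequence (sequence 1). Close pairs were few: a WRKY40 and a WRKY18 model lie 89144 bases apart on sequence 10, and a WRKY43 and a WRKY22 model 18128 bases apart on sequence 2, all 4 without enough counts to be tested.

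Not every member is annotated as a plain WRKY factor. In 4 the product name lacks the word, 1 being Peroxidase 40 and 3 a translation initiation factor 6-2, and 5 carry a further domain of another kind. Conversely, 10 models bear WRKY in their description without the domain. Of these 3 were tested, and 1 fell: Cha13g011640, a high mobility group B protein whose description gives WRKY53 as another name, at 164 ± 45.6 CPM at low and 296 ± 12.3 CPM at high temperature (SD, n = 3 each; log2 change -0.85 ± 0.17, adjusted p = 0.00216).

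Genes that work with WRKY factors were read from 5 lists, which together held 175 tested models, 35 of them called. That is 20%, against 18.9% of all tested models, and the lists together are thus near the background. Without low-temperature replicate 2 or 3 or high-temperature replicate 3, 16, 14 or 19 were called, and without high-temperature replicate 1, 22. VQ proteins bind WRKY domains and tune their activity. Of 26 VQ models 15 were tested, 1 rose and 1 fell (13.3% called, median log2 change 0.25). Sigma factor binding protein 1 (Cha13g002270), which in Arabidopsis binds WRKY33, read 57.5, 70.6 and 49.1 CPM at low temperature, against 81.7, 79.4 and 81.0 CPM at high temperature (log2 change -0.45 ± 0.14, adjusted p = 0.0319). All 3 low-temperature values were below the controls. VQ31 (Cha14g000210) rose to 1.71 ± 0.107 CPM at low temperature, against 0.521 ± 0.294 CPM at high temperature (SD, n = 3 each; adjusted p = 0.0373). The call of Sigma factor binding protein 1 ended without low-temperature replicate 1 or 3 or high-temperature replicate 1 or 3, with adjusted p of up to 0.21. That of VQ31 ended without any library except high-temperature replicate 3, with adjusted p of up to 0.132.

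Upstream of WRKY factors, 57 of 70 MAP kinase cascade models were tested, 5 rose and 3 fell (14% called, median log2 change 0.18). A MAP kinase 19 model (Cha02g012200) read 5.003, 5.75 and 4.21 CPM at low temperature, against 8.77, 16.6 and 10.1 CPM at high temperature. Its groups were apart (log2 change -1.25 ± 0.25, adjusted p = 0.00251). The more abundant model of that name (Cha05g010980) was not called, at 51.6 CPM at low and 54.3 CPM at high temperature (log2 change -0.07, adjusted p = 0.769). The homolog of WD repeat protein 83, a MAP kinase scaffold in animals (Cha01g011460), stood at 30.9 ± 7.06 CPM at low and 17.9 ± 1.88 CPM at high temperature (SD, n = 3 each; log2 change 0.79 ± 0.18, adjusted p = 0.00473). MKP1, a phosphatase that switches MAP kinases off (Cha01g003540), rose by 0.62 in log2 (adjusted p = 0.0124), and both called MKK2 models fell. Of 30 tested pattern receptors and co-receptors 4 rose and 2 fell (20% called, median 0.08). They include a model of FLS2, the flagellin receptor (ChaUn14884.1), at 12.7, 12.7 and 9.40 CPM at low temperature, against 4.89, 8.28 and 5.65 CPM at high temperature (log2 change 0.88 ± 0.23, adjusted p = 0.0131). Without low-temperature replicate 1 or 2 or high-temperature replicate 1 or 3 the adjusted p of ChaUn14884.1 was between 0.0518 and 0.0713. The other FLS2 model (Cha03g015520) was not called, at 14.1 CPM at low and 10.4 CPM at high temperature (log2 change 0.44, adjusted p = 0.107). Those that fell were a model of LysM domain receptor-like kinase 4 and a locus named BRASSINOSTEROID INSENSITIVE 1-associated receptor kinase 1 (log2 changes -1.16 and -1.13). Another model of the latter name rose (Cha02g002930, log2 change 0.39). A model named LysM domain receptor-like kinase 3 (Cha13g005070) is annotated with a kinase domain but no LysM domain. It stood at 21.3 ± 1.21 CPM at low and 11.3 ± 4.33 CPM at high temperature (SD, n = 3 each). Its log2 change was 0.92 ± 0.23 (adjusted p = 0.0122), and the adjusted p was 0.0524 without low-temperature replicate 2.

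Of 59 tested models of salicylic acid synthesis and signalling, 2 rose and 14 fell, or 27.1% called, against 18.9% of all tested models (9.27% higher and 9.65% lower), and the median log2 change was -0.06. Only 7 fell without low-temperature replicate 2, 8 without low-temperature replicate 3 and 9 without high-temperature replicate 3. Those that fell were named salicylic acid-binding protein 2, carboxyl methyltransferases, DMR6, DMR6-like oxygenases or calmodulin-binding protein 60 A, or had no product name. Isochorismate synthase (ChaUn5445.2) was not called (log2 change 0.16, adjusted p = 0.45), nor was any model named NPR, EDS1L or PAD4. Among those that fell was salicylic acid-binding protein 2 (ChaUn11481.1), which frees salicylic acid from its methyl ester, at 31.95, 34.01 and 36.8 CPM at low temperature, against 64.2, 69.9 and 59.9 CPM at high temperature (log2 change -0.92 ± 0.13, adjusted p = 0.000155). Salicylate carboxymethyltransferase (Cha03g015690), which makes that ester, stood at 14.0 ± 2.84 CPM at low and 31.9 ± 9.32 CPM at high temperature (SD, n = 3 each; log2 change -1.19 ± 0.21, adjusted p = 0.000879). Cha03g015690 is also annotated with nucleotidase, MEKHLA and protein kinase domains, so its counts may not all belong to the methyltransferase. A DMR6 model (Cha08g000650), whose Arabidopsis enzyme hydroxylates salicylic acid, averaged 0.413 CPM at low and 1.93 CPM at high temperature (log2 change -2.21, adjusted p = 0.0176). More abundant models named DMR6 were not called. ChaUn9593.5, Cha01g010240 and Cha03g005890 had log2 changes of -0.39, -0.26 and 0.35 (adjusted p = 0.248, 0.447 and 0.443).

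Genes known as WRKY targets in Arabidopsis were mostly too low to test, with 14 of 50 tested, 1 up and 2 down (21.4% called, median log2 change 0.03). The phosphate transporter model PHT1-3 (Cha09g013980) read 243, 203 and 184 CPM at low temperature, against 142, 101 and 148 CPM at high temperature (log2 change 0.69 ± 0.16, adjusted p = 0.00625). A PHT1-4 model (ChaUn18400.3) was scarce, with 0.455 ± 0.19 CPM at low and 2.10 ± 0.978 CPM at high temperature (SD, n = 3 each; log2 change -2.18 ± 0.56, adjusted p = 0.0115), and its adjusted p was 0.0681 without low-temperature replicate 3 and 0.0798 without high-temperature replicate 1. The third was a senescence-induced receptor-like kinase (ChaUn22461.1), at 11.1 CPM at low and 17.6 CPM at high temperature (log2 change -0.67, adjusted p = 0.0148).

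Markers of the cell types a young shoot can hold were read against the same background of 9.27% higher and 9.65% lower among all tested models. Leaf mesophyll markers (chlorophyll-binding proteins and the small subunit of Rubisco) fell in 14 and rose in 2 of 27 tested models (59.3% called), and summed to between 33556 and 34670 CPM at low and between 39134 and 53958 CPM at high temperature, where replicate 2 held the low end. Guard cell markers fell in 4 of 11 tested models (36.4% called) and summed to between 119 and 123 CPM at low and between 154 and 172 CPM at high temperature. The smallest p was that of a locus outside the annotated gene models, named EPIDERMAL PATTERNING FACTOR 2. It stood at 1.74 CPM at low and 6.90 CPM at high temperature (log2 change -1.99, adjusted p = 0.000205). FAMA (Cha09g012630), which drives guard cell formation, stood at 4.45 CPM at low and 10.7 CPM at high temperature (log2 change -1.26, adjusted p = 0.004).

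The other marker lists were closer between the groups or higher at low temperature. Dividing cell markers rose in 2 and fell in 2 of 23 tested models (17.4% called), with sums of 1180 to 1316 CPM at low and 1239 to 1308 CPM at high temperature. The smallest p was that of a cyclin-A2-1 model with cyclin domains (Cha12g007010), which fell. It stood at 19.9 ± 4.94 CPM at low and 50.2 ± 5.88 CPM at high temperature (SD, n = 3 each). Its log2 change was -1.33 ± 0.17 (adjusted p = 5.51e-05). One that rose, Cha01g021690, is named cyclin-B1-2 but is annotated with a proteasome maturation factor domain and no cyclin domain. Its own annotation thus goes against its place in the list. Epidermis and trichome markers rose in 5 and fell in 4 of 26 (34.6% called), with sums of 1478 to 1731 CPM at low and 1423 to 1536 CPM at high temperature. Vascular and xylem markers, of which 1 of 22 rose (4.55% called), summed to 391 to 433 CPM at low and 357 to 378 CPM at high temperature. Markers known from roots, of which 2 of 5 rose (40% called), summed to 267 to 304 CPM at low and 172 to 186 CPM at high temperature. Nearly all of it came from Cha06g017890 (182 CPM at low, 112 CPM at high temperature) and Cha03g017610 (82.8 and 44.6 CPM). Cha06g017890, named a Casparian strip membrane protein, also carries a KH domain, so its place in the list is less certain. A list of 5 models is too short to read a share from. At 0 counts in every library were 3 of 35 dividing cell models (a cyclin-A2-1 and 2 MCM5 models), a sieve element occlusion B model, an SLAH1 model and a SHORT-ROOT model, and no model of the mesophyll or epidermis lists. The part of these lists in the WRKY values was not tested.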

How the data were processed

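Total RNA of young shoots was made into Illumina libraries with a column kit and a standard RNA library kit, per the labels' protocols. As deposited, the values are raw counts and, in a second table, FPKM (fragments scaled to gene length and to library size by the authors), beside product names, domains and positions. The submitters' processing notes name featureCounts 1.5.0-p3, HISAT2 2.0.5, fastp, CASAVA 1.8.2, R 4.1.0 and DESeq2 1.20.0, without roles. The sources used here do not give the genome build or the strand setting, so antisense reads may be included in a gene's count, and "sequence 3" means the assembly sequence of that number. The reference gene table matched 0 of 40118 identifiers and was not used.

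Groups were taken from the sample labels, and the members and gene lists were chosen with earlier results of these data known. Counts of all gene models were fitted in edgeR 4.0.16 under R 4.3.3 (robust quasi-likelihood F test with temperature as the only term, scaled by TMM, on models that passed filterByExpr at a minimum count of 10), and p-values were adjusted by Benjamini-Hochberg over the 26767 tested. Each standard error is the log2 change divided by the square root of F. Floors (3 counts) cover counting error only. On simulated counts for these 26767 models the test recovered 24% of 50 models changed 1.5-fold, 56% at 2-fold, 92% at 4-fold and 98% at 8-fold. In that simulation 26567 models were left unchanged, whereas 5062 were called in the data. Adjustment was thus stricter in the simulation, and these shares may be too low for these data. WRKY groups were read from the Arabidopsis number in the product name. Named members were all that passed, the 5 with the highest mean FPKM and the one with the smallest p in each group. The 2 models with the smallest p were named from each of the 5 lists and from the dividing cell, guard cell and root markers. No tested model was named from the mesophyll, vascular or epidermis markers. Others, such as Cha13g009480, Cha12g001020, ChaUn10993.2, Cha08g016990 and the other models sharing a name with a called member, were picked after their values were seen. So were further models of the lists, called or not. Alternatives were other scalings, other count filters, a replicate block, DESeq2 1.42.0, limma 3.58.1 on log2(FPKM + 1) or log2(FPKM + 0.1), stricter thresholds, membership by the word WRKY, and each library left out in turn.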

Additional observations from a re-analysis of the deposited data

How the results depend on the processing

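All 10 called members kept the sign of their change in all 17 alternatives, and the choices moved how many passed. Against 3 members higher and 7 lower, limma gave 1 and 4 on log2(FPKM + 1) and 1 and 4 on log2(FPKM + 0.1), both with a mean FPKM of at least 0.5, and 1 and 3 without that filter. An adjusted p under 0.01 gave 1 and 2, and a test against a 1.5-fold change gave 0 and 1, by edgeR's own test. At an unadjusted p under 0.05 in the test against no change were 21 of 58 tested members and 8528 of all 26767 tested models. DESeq2 gave 3 and 5, and membership by the word WRKY 3 and 8. Cha02g000930, Cha04g022660, Cha07g014430, Cha08g012730 and Cha10g003590 lost the call in all 3 limma analyses, and Cha04g022660 and Cha10g005460 lost it in DESeq2. Over the 17 alternatives these members kept it in between 6 (Cha04g022660) and 10 (Cha02g000930). Leaving out 1 library gave 1 to 5 higher and 3 to 6 lower. Over all gene models the 5062 calls became 2980 with limma without a filter, 2423 at an adjusted p under 0.01, 572 against a 1.5-fold change and 2606 to 5621 without 1 library. For the 5 lists 35 calls became 21, 20 and 16 in the 3 limma analyses, 10 at the stricter p, 1 against 1.5-fold and 14 to 42 without 1 library.

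The median log2 change of the fitted members was -0.00688 over the 58 of the main analysis. It was -0.0402 with library totals, 0.0614 without a count filter, -0.0436 at a minimum count of 30 and 0.0215 with the replicate block. In DESeq2 it was 0.0915, in limma 0.0863, 0.0911 and 0.05004, and without 1 library -0.0550 to 0.0659. The members covered differ between these fits. Without a count filter, in DESeq2 and in limma without a filter, every member with a count enters, also those with few reads. Over all models in the fit the median was -0.0103 in the main analysis and moved down to -0.0553 with library totals. It was -0.0141 without a count filter, -0.00266 at a minimum count of 30, -0.00229 with the replicate block and -0.0117 in DESeq2. In limma it was 0.000518, 0.00555 and -0.00141, and without 1 library -0.0170 to 0.00422. The sign of the members' median therefore depended on the choices, some of which also change the members covered, and the cause was not tested. The replicate numbers do not pair the libraries: deviations of same-numbered libraries correlated at -0.0113, 0.0399 and -0.00939, and only replicate 2 correlated best with its own number. The replicate block gave 3 higher and 7 lower, 4805 calls over all models and 30 in the lists. With 3 libraries a group, changes near 1.5-fold were recovered in few of the simulated models, though far fewer models changed there than were called in the data. Members that missed the threshold may still differ by that much.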
